A study of Mus musculus with 20 samples.

Results

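Gfap, Aqp4, Gja1, Slc1a2, Slc1a3, Aldoc, Aldh1l1 and S100b are widely used marker genes of astrocytes, the support cells of the brain. Their DNA methylation was followed here in brain homogenate enriched for another cell type, microglia. Every CpG listed inside each mm10 gene or within 1 kb of its ends was taken, whatever its value. That gave 8 of the 17237 coding genes with a listed CpG, and 309 of the 1132579 CpGs listed at both ages. CpG counts are of listed positions, so a CpG listed on both strands counts once per strand. The gene regions were Gfap (chr11:102887336-102897200, 20 CpGs), Aqp4 (chr18:15389394-15410982, 15 CpGs), Gja1 (chr10:56377300-56390419, 21 CpGs) and Slc1a2 (chr2:102658239-102790784, 119 CpGs). The others were Slc1a3 (chr15:8634124-8710807, 55 CpGs), Aldoc (chr11:78323073-78327781, 43 CpGs), Aldh1l1 (chr6:90550768-90599171, 34 CpGs) and S100b (chr10:76253836-76261319, 2 CpGs).

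Methylation was measured by reduced representation bisulfite sequencing. It samples CpG-dense fragments and gives, for each CpG, the percent of reads that are methylated. HEM mice overexpressed full-length human wild-type α-synuclein under the murine Thy-1 promoter. The transgene sits on the X chromosome. WT mice were the controls, and all mice were on the B6D2F1/J background. The 13-month set held 8 HEM and 4 WT libraries. The 3-month set held 4 of each, although the series text counts 3 WT mice there. The Thy-1 promoter is chiefly used to drive expression in neurons, and the labels do not give the sex of the mice. Libraries of a group were taken as separate mice, and p-values measure the spread between these libraries. The read depth behind each value is unknown, because the tables hold percentages only.

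Astrocytes take up glutamate at synapses, move water and ions, and couple to each other through gap junctions, and these genes carry out such tasks. A cell-type gene is often less methylated at its regulatory CpGs in the cells that use it than in other cells. In bulk DNA, a different share of a cell type and a different methylation level within its cells cannot be told apart.

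The 4 genes of microglia gave each library a reference value. The microglia index was the mean methylation of Tmem119, a microglial surface protein gene, Csf1r, the gene of a growth factor receptor, C1qa, a complement gene, and Irf8, a myeloid transcription factor gene. It ran from 36.3% in HEM replicate 11 of 13 months to 58.0% in HEM replicate 1 of 3 months, and the 4 genes moved together, with Pearson correlations of 0.890 to 0.955 between pairs. The 13-month HEM libraries averaged 45.7% ± 6.78 (SD, n = 8) and the WT ones 48.6% ± 6.79 (SD, n = 4) (two-sided exact permutation p = 0.491). At 3 months the HEM mean was 53.6% ± 4.57 and the WT mean 51.1% ± 3.91 (SD, n = 4 each, two-sided exact permutation p = 0.457). Older less younger HEM libraries gave -7.91 points (two-sided exact permutation p = 0.0646). The mean over all CpGs of a library varied less, from 29.2% to 31.9%.

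RefSeq's promoter table held 7 of the 8 genes, all but Aqp4, and Aldh1l1 was the one whose window contained measured CpGs. Its 250 bases before the transcript start are shown because this stretch is part of the clearest relation to the index described below. It lies at chr6:90550543-90550792 of GRCm38.p6, the assembly of mm10, on the plus strand, and capitals mark the 6 CpG pairs with a measured position.

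Aldh1l1 promoter: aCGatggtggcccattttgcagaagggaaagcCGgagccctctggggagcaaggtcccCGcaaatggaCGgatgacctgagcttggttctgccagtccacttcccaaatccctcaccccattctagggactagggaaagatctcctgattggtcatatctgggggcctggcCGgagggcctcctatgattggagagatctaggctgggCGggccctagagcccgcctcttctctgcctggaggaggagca

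Of 9 listed positions in this stretch, 8 lay in the capital pairs and averaged 5.93% to 16.6% over all libraries. The other, at 90550564, was at 0% in every library and is not in a CpG of the reference sequence.

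The 309 CpGs were mostly either unmethylated or intermediate. Over all libraries 146 averaged under 5%, 157 between 5% and 95%, and 6 over 95%. Slc1a2 encodes GLT-1, the main glutamate transporter of astrocytes, and a run of 80 CpGs from 17 to 1400 bp after its start averaged 0.875% ± 0.257 (SD over libraries, n = 20). This run also lies in LOC115489466. Distances in Slc1a2 are counted from the start of the gene, while its transcript in RefSeq's promoter table starts farther in, at chr2:102706438. Slc1a3 encodes the glutamate transporter GLAST, and 21 CpGs from 66 to 579 bp after its start averaged 0.354% ± 0.180. Gja1 encodes the gap junction protein connexin 43, and 11 CpGs from 899 to 1907 bp after its start averaged 0.691% ± 0.458. These runs were thus close to unmethylated in all 20 libraries, and the CpGs of wider spread in these genes lay elsewhere. The CpGs in the promoter window of Gja1 were not measured.

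Gfap, the gene of the astrocyte intermediate filament, differed in this respect. Its 11 CpGs from 238 to 480 bp after the start averaged 62.0% ± 9.73, and libraries ranged from 42.1% to 80.6%. The CpG of widest spread in the gene, at 102896931, went from 18.2% to 87.2%. Farther in, 5 CpGs from 3913 to 3947 bp averaged 0.887%, and 4 CpGs past the gene's end, shared with Fam187a, averaged 87.1%.

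Aqp4, the gene of the water channel at astrocyte endfeet, had no CpG under 5%: 10 CpGs that also lie in A830021F12Rik averaged 45.7% ± 7.97, and 5 others averaged 25.4% ± 5.72. Aldoc, the gene of a glycolytic enzyme of the brain, had 14 CpGs inside the gene in runs that averaged 55.1%, 72.6% and 80.7%. Its other 29 CpGs lay in the flank shared with Pigs and averaged 0.158%, so the mean of the region moved less than the CpGs in the gene. Aldh1l1, the gene of a folate enzyme, had 24 CpGs between -560 bp and 397 bp of its start at 13.0% ± 2.46, and 6 CpGs from 18956 to 19469 bp at 43.6% ± 7.26. The 2 CpGs of S100b, the gene of a calcium-binding protein, averaged 95.1% and 87.8%.

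**Figure D1:**
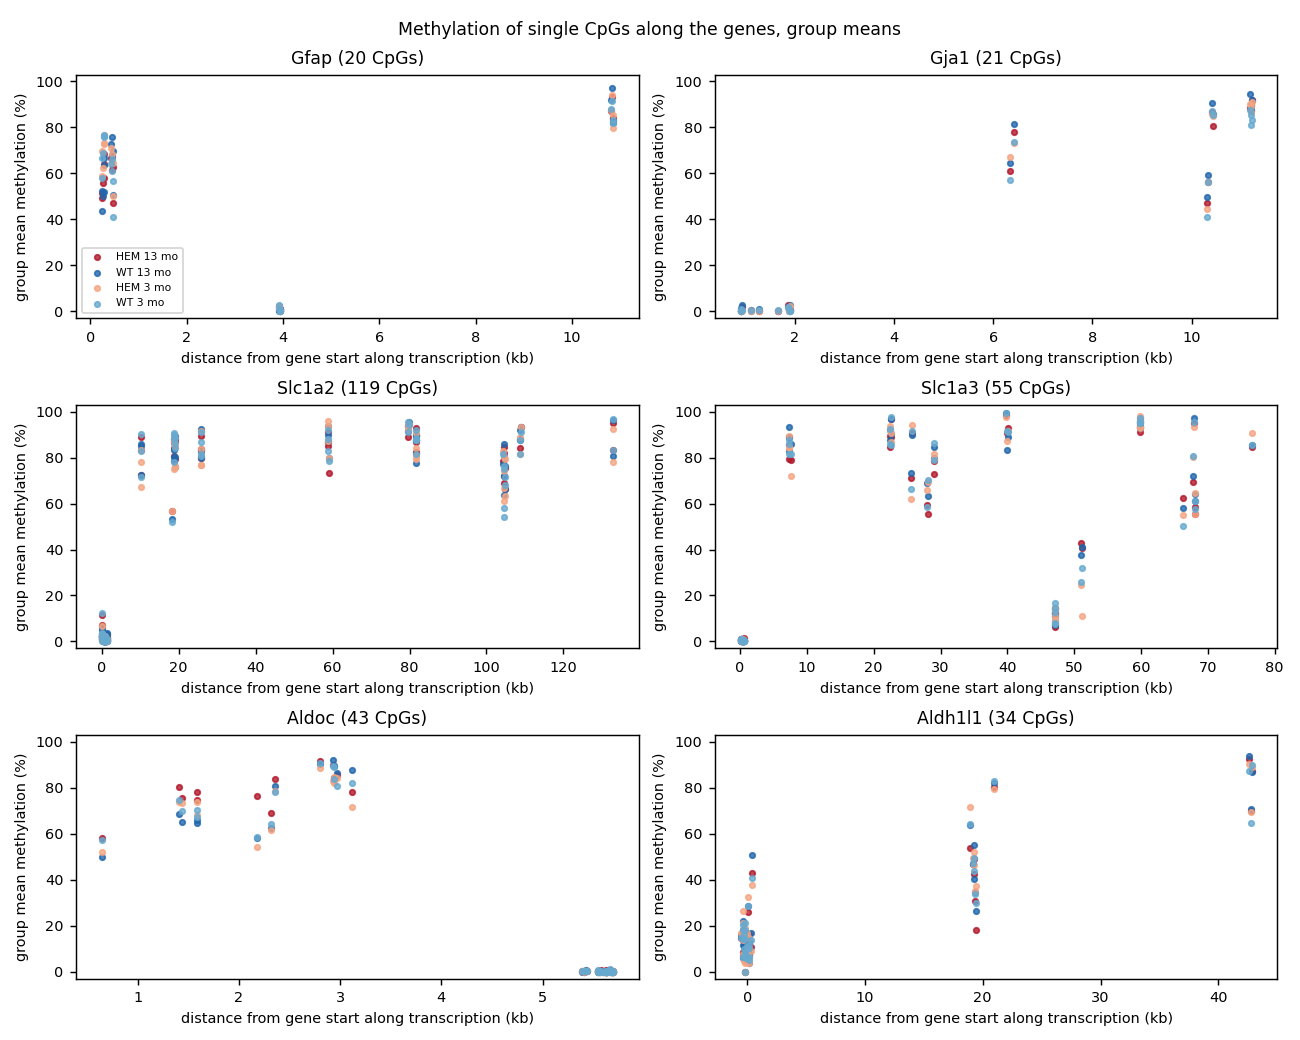
Group mean methylation (%, vertical axis) of each CpG against its distance from the gene start (kb, horizontal axis) in 6 genes, with a colour for each of the 4 groups. CpGs after the starts of Gja1, Slc1a2 and Slc1a3 lie near 0% in every group, while the 11 CpGs after the start of Gfap average 62.0%.

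HEM and WT were compared first at 13 months. No member was called, meaning an adjusted p under 0.05 and a difference of at least 5 points: 0 of the 7 members with at least 3 CpGs, against 0% of 12350 gene regions (limma). At an unadjusted p under 0.05 there were 0 members and 465 regions. Of these 7, Aqp4 had the widest difference. In HEM it ranged from 34.2% to 51.6% with a median of 44.5%, and in WT the libraries were at 32.2%, 35.7%, 44.3% and 37.9%. The HEM mean was 6.004 points higher, or 0.35 ± 0.22 (SE) in log2 of the methylated over the unmethylated percent (limma adjusted p = 0.99989), and the groups overlapped. Groups without overlap were found in 0 of 8 members, against 0.283% of regions.

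The other 6 tested members differed by less. Aldoc averaged 26.0% ± 0.695 in the 8 HEM libraries and 24.5% ± 2.16 (SD) in the 4 WT libraries, and Aldh1l1 25.5% ± 3.05 and 27.2% ± 4.04. Gfap was at 50.3% ± 6.25 and 51.1% ± 5.18, Gja1 at 36.9% ± 1.85 and 38.3% ± 1.17, and Slc1a3 at 42.7% ± 1.28 and 43.7% ± 0.982. Slc1a2 was at 28.0% ± 1.05 and 28.0% ± 1.22. S100b, with too few CpGs for this test, was at 88.4% ± 7.19 and 96.9% ± 3.43, a difference of -8.52 points, and its groups overlapped too. Misses of the threshold do not show that the genotypes were alike.

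At 3 months Aqp4 differed in the other direction. The HEM libraries were at 28.2%, 27.5%, 37.4% and 36.6% and the WT libraries at 35.7%, 35.0%, 42.1% and 38.1%. HEM replicates 1 and 2 lay below all WT libraries and HEM replicates 3 and 7 among them. The difference was -5.32 points, or -0.34 ± 0.18 (SE) on the log2 scale (limma adjusted p = 0.998). Again 0 of 7 members and 0% of 12299 regions were called, with 0 members and 461 regions at an unadjusted p under 0.05 (limma). The 2 genotypes overlapped in all 8 members, where 2.01% of regions did not overlap. In the other 6 tested members HEM less WT ran from -0.713 points in Aldoc to 1.46 points in Gja1, and in S100b it was 5.43 points.

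**Figure D2:**
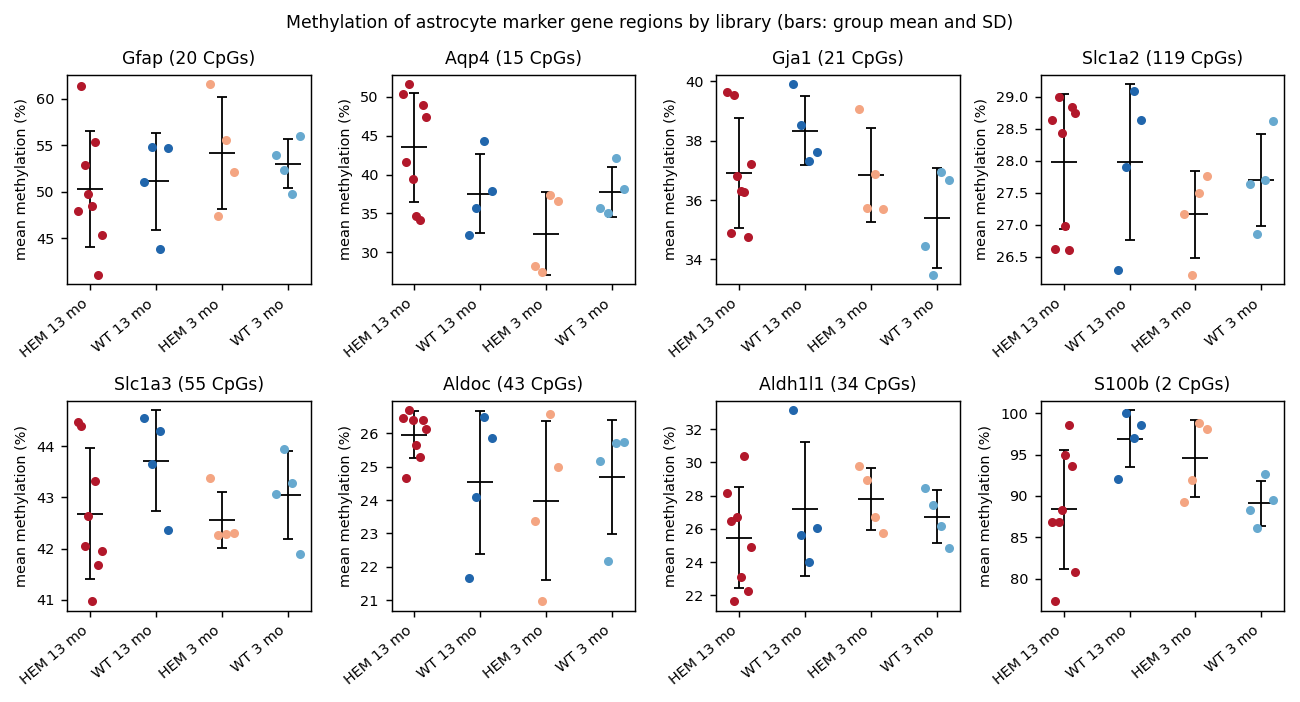
Mean methylation (%, vertical axis) of each gene region in each library by group, with bars for the group mean and SD. HEM and WT libraries overlap in all 8 genes at both ages, and in WT the 13-month libraries of Gja1 lie above the 3-month ones.

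Age was compared within each genotype. The libraries of the 2 ages were deposited as separate sets, so age and set cannot be told apart. In WT, Gja1 was at 39.9%, 38.5%, 37.3% and 37.6% at 13 months and at 34.5%, 33.5%, 36.9% and 36.7% at 3 months. All older libraries lay above all younger ones. Gja1 was the 1 member of 8 without overlap, against 2.84% of regions in this comparison, and its difference of 2.95 points was not called (limma unadjusted p = 0.0198, adjusted p = 0.944). In all, 0 of 7 members and 0% of 12323 regions were called, with 1 member and 571 regions at an unadjusted p under 0.05 (limma). S100b, with too few CpGs for this test, was 7.81 points higher at 13 months, with overlap.

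In HEM Gja1 differed by 0.0722 points between the ages, and Aqp4 and Aldoc had the smallest p of the 7 tested members. Aqp4 was at 43.5% ± 6.997 (SD, n = 8) at 13 months and 32.4% ± 5.28 (SD, n = 4) at 3 months, a difference of 11.1 points (limma unadjusted p = 0.0111, adjusted p = 0.297). Aldoc was at 26.0% ± 0.695 and 24.0% ± 2.40 (limma unadjusted p = 0.0385, adjusted p = 0.353). These were 2 of 7 members at an unadjusted p under 0.05, against 1676 of 12332 regions, and 0 members and 0% of regions were called (limma). The ages overlapped in all 8 members, and did not in 1.44% of regions. In S100b, which was not tested as a region, 13 less 3 months gave -6.14 points. The microglia index was lower in the older HEM libraries, and with it as a covariate the Aqp4 difference was 5.74 points and that of Aldoc 0.901.

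An interaction term asked whether HEM less WT was the same at both ages. Of the 7 tested members Aqp4 had the smallest p, with 11.3 points, or 0.69 ± 0.31 (SE) on the log2 scale (limma unadjusted p = 0.0390, adjusted p = 0.910). With the index as a covariate, the Aqp4 interaction was 7.59 points. Of 7 members 0 were called, as were 0% of 12335 regions, with 1 member and 613 regions at an unadjusted p under 0.05 (limma).

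At single CpGs, 0 of the 155 to 162 member CpGs tested were called in any of the 5 comparisons, at an adjusted p under 0.05 and, but for the interaction, a difference of 10 points (limma). The shares called over all CpGs were 0.00157% between genotypes at 13 months, 0% at 3 months, 0.0183% between ages in WT, 0.0305% between ages in HEM and 0.000224% for the interaction. Member CpGs reached an unadjusted p under 0.05 in 8 of 160, 8 of 158, 7 of 155, 15 of 162 and 7 of 157 cases, against 5.83%, 4.55%, 4.79%, 10.4% and 6.28% of all CpGs. The smallest p of a member at 3 months was at Slc1a2 CpG 102717149, with a HEM mean of 93.8% ± 2.34 and a WT mean of 82.7% ± 3.21 (SD, n = 4 each, limma adjusted p = 0.986). In simulated data 0% of 20-point differences at single CpGs were recovered between genotypes at either age. The region test recovered 81.5% of simulated 10-point genotype differences at 13 months and 87.0% at 3 months. These simulations changed 200 features of each size at once, all in the middle of the methylation range. So many changes ease the adjusted threshold. The shares therefore do not say how often a 10-point difference is found where few regions differ. At single CpGs of the middle range, 20-point genotype differences were thus not detected in the simulation. Changes at other CpGs were not simulated.

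The members were next compared with the microglia index over the 20 libraries, with the 4 groups as covariate. Of 7 members 4 were called (adjusted p under 0.05, limma), against 13.9% of 12330 gene regions. Aldh1l1 rose with the index, where 6.1% of regions rose, and Aqp4, Slc1a2 and Aldoc fell with it, where 7.77% fell. Gfap, Slc1a3 and Gja1 were not called. Within ages, 1 of 7 members was called among the 13-month libraries, Aldh1l1, against 481 of 12345 regions, and 0 among the 3-month libraries, against 70 of 12294 (limma). Slopes below are in points of methylation per 10 points of the index. Their median was -0.0403 in the members and -0.185 over all regions, with the 5th and 95th percentiles of all regions at -2.79 and 2.48.

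Aldh1l1 had the smallest p of the members. In HEM of 13 months it ranged from 21.7% to 30.4% with a median of 25.7%, and WT libraries of that age were at 33.1%, 25.6%, 24.0% and 26.05%. At 3 months HEM libraries were at 29.8%, 28.9%, 26.7% and 25.8%, and WT libraries at 28.5%, 27.5%, 26.2% and 24.9%. HEM replicate 6 of 13 months, lowest in Aldh1l1, had an index of 38.9%, and WT replicate 1 of 13 months, highest in Aldh1l1, one of 55.5%. The slope was 4.14 (limma adjusted p = 0.000197), and it stayed between 3.59 and 4.67 and called when each library was left out in turn. Pearson's r was 0.856 (permutation p = 1e-05, the smallest these permutations can give, n = 20) and Spearman's rho 0.856 (permutation p = 2e-05). Within ages r was 0.854 at 13 months (permutation p = 0.00021, n = 12) and 0.959 at 3 months (exact permutation p = 0.00057, n = 8). Without HEM replicates 6 and 11 of 13 months, the libraries farthest from the median index, r was 0.791. Such correlations were computed for the 8 genes over all libraries and within each age, 24 in all. They were not adjusted for group, whereas the slopes were, so they include differences between group means.

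The run around the start of Aldh1l1 and the run from 18956 bp had positive slopes. The 24 CpGs around the start, which include the printed promoter, had a slope of 3.67 ± 0.617 (SE), and the 6 CpGs from 18956 bp one of 9.33 ± 1.875. The CpG at 20964 bp had a slope of -2.62 ± 5.87 (SE), and the 3 CpGs from 42634 bp one of -0.15 ± 1.96. Of 33 CpGs tested, 6 were called, all rising, where 3.49% of all CpGs were called and 2.24% were called rising (limma). These 6 include the CpG at 90550751, in the last capital pair of the promoter, with a slope of 8.11 (limma adjusted p = 0.0390), and the CpG at 90570237, with one of 15.8 (limma adjusted p = 0.00909).

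Aqp4 fell by 6.82 points per 10 points of the index (limma adjusted p = 0.0133). Its highest library, HEM replicate 6 of 13 months at 51.6%, had the second lowest index, and its lowest, HEM replicate 2 of 3 months at 27.5%, the second highest. All 15 CpGs had slopes below 0, and none was called alone. Of these CpGs 5 reached an unadjusted p under 0.05, against 18.2% of all CpGs tested (limma). The runs of Aqp4 had slopes of -7.48 ± 2.24 and -5.52 ± 1.70 (SE). Pearson's r was -0.777 (permutation p = 1e-04, n = 20) and rho -0.809 (permutation p = 5e-05), with r at -0.676 at 13 months (permutation p = 0.0191, n = 12) and -0.863 at 3 months (exact permutation p = 0.0031, n = 8). Without the 2 farthest libraries r was -0.670, and the call was lost (limma adjusted p = 0.0835). It was also lost without HEM replicate 10 of 13 months (limma adjusted p = 0.0526, the highest of 0.001003 to 0.0526 when each library was left out).

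Slc1a2 fell by 1.29 points (limma adjusted p = 0.00571), over a region in which 80 of 119 CpGs lay in the unmethylated start. HEM of 13 months ranged from 26.6% to 29.0% with a median of 28.5%, and WT of that age was at 26.3%, 27.9%, 29.1% and 28.6%. At 3 months HEM was at 27.2%, 26.2%, 27.5% and 27.8% and WT at 27.6%, 26.8%, 27.7% and 28.6%. The groups overlapped within this narrow span. The steepest run was that of 7 CpGs from 104355 to 104819 bp into the gene, at 73.4% with a slope of -9.48 ± 1.72 (SE), where the CpGs at 102762825 and 102762838 were called with slopes of -16.5 and -12.5. The 2 CpGs past the gene's end had a slope of -5.22 ± 1.55, and the 80 CpGs of the start one of -0.191 ± 0.0840. Pearson's r of the region was -0.799 (permutation p = 3e-05, n = 20) and rho -0.832 (permutation p = 2e-05), with r at -0.769 at 13 months (permutation p = 0.00487, n = 12), -0.831 at 3 months (exact permutation p = 0.00727, n = 8) and -0.763 without the 2 farthest libraries.

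Aldoc fell by 1.83 points (limma adjusted p = 0.0305). HEM of 13 months ranged from 24.7% to 26.7% with a median of 26.3%, and WT of that age was at 21.7%, 24.1%, 26.5% and 25.9%. At 3 months HEM was at 23.4%, 21.0%, 26.6% and 24.99%, and WT at 25.2%, 22.2%, 25.7% and 25.8%. The low libraries were those of high index, among them HEM replicate 2 of 3 months and WT replicate 1 of 13 months. Inside the gene the 3 runs had slopes of -8.67 ± 3.12, -5.82 ± 3.18 and -5.13 ± 1.42 (SE), against -0.0235 ± 0.0539 in the flank shared with Pigs. Pearson's r was -0.727 (permutation p = 0.00031, n = 20) and rho -0.838 (permutation p = 3e-05), with r at -0.696 at 13 months (permutation p = 0.00453, n = 12), -0.801 at 3 months (exact permutation p = 0.0181, n = 8) and -0.725 without the 2 farthest libraries. The call was lost without HEM replicate 3, WT replicate 1 or WT replicate 6 of 13 months (limma adjusted p = 0.0514, 0.0731 and 0.0896).

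**Figure D3:**
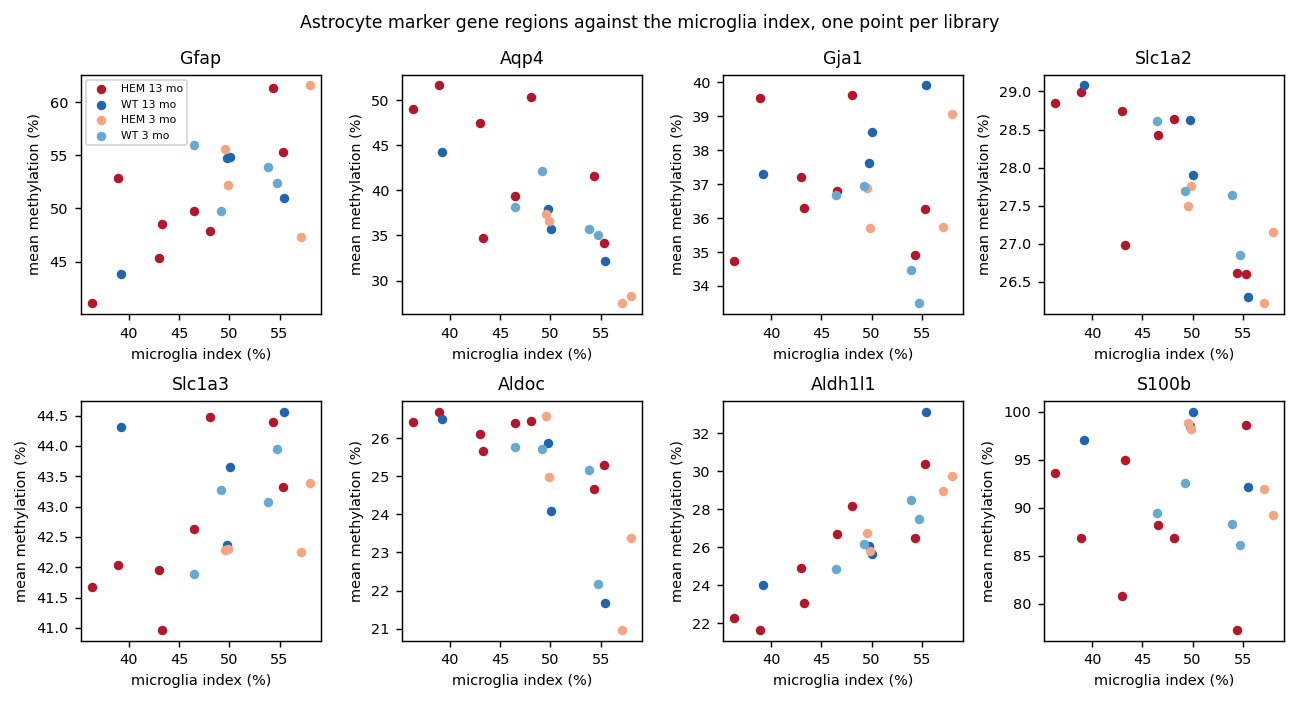
Mean methylation (%, vertical axis) of each gene against the microglia index (%, horizontal axis), 1 point per library, coloured by group. Aldh1l1 climbs between 21.7% and 33.1%, Aqp4 descends between 51.6% and 27.5%, and Gja1 has no visible slope.

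Gfap had a slope of 5.38 and was not called (limma adjusted p = 0.0605). In HEM of 13 months it ranged from 41.1% to 61.4% with a median of 49.1%, and in WT of that age it was at 51.0%, 54.9%, 43.8% and 54.8%. At 3 months HEM was at 61.6%, 47.3%, 55.6% and 52.2% and WT at 53.9%, 52.4%, 49.8% and 56.0%. HEM replicate 11 of 13 months, of lowest index, was lowest, and HEM replicate 1 of 3 months, of highest index, was highest. Pearson's r was 0.632 (permutation p = 0.00287, n = 20) and rho 0.495 (permutation p = 0.0276), and r was 0.746 at 13 months (permutation p = 0.00538, n = 12), 0.0723 at 3 months (exact permutation p = 0.870, n = 8) and 0.603 without the 2 farthest libraries. The relation was thus not seen among the 8 libraries of 3 months, and the difference between the ages was not tested. The slope lay in the 11 CpGs after the start, at 9.82 ± 3.54 (SE), with 12.0 at 13 months and 0.598 at 3 months. The other runs had slopes of 0.365 ± 0.349 and -0.562 ± 0.849. The CpG at 102896957, in the 11, was called with a slope of 18.02 (limma adjusted p = 0.0489).

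Slc1a3 held slopes of both signs. Its region mean had a slope of 0.997 and was not called (limma adjusted p = 0.0944). Pearson's r was 0.444 (permutation p = 0.0508, n = 20) and rho 0.514 (permutation p = 0.0216), with r at 0.569 at 13 months (permutation p = 0.0577, n = 12), 0.497 at 3 months (exact permutation p = 0.207, n = 8) and 0.305 without the 2 farthest libraries. The 2 CpGs from 27998 to 28156 bp, at 62.6% ± 12.7, had a slope of 19.7 ± 2.28 (SE), with 19.4 at 13 months and 21.2 at 3 months. Both were called. That at 8682809 had a slope of 26.1 (limma adjusted p = 0.000668) and stayed called without each library in turn, with adjusted p up to 0.00438.

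Slopes in the other runs of Slc1a3 ran in both directions. The 4 CpGs from 67837 to 68069 bp, at 72.0%, had a slope of 11.4 ± 2.09 (SE), and 1 of them, at 8642755, was called with a slope of 21.5 (limma adjusted p = 0.0177). The 2 CpGs from 51059 to 51226 bp, at 33.9% ± 16.3, had one of -14.0 ± 5.02, and neither was called. At 13 months the HEM mean was 41.9% ± 15.6 and the WT mean 39.5% ± 20.6, and at 3 months they were 17.7% ± 5.78 and 28.7% ± 7.91 (SD).

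Gja1 had a slope of -0.0403 (limma adjusted p = 0.968) and an r of -0.0853 (permutation p = 0.720, n = 20). Its CpG at 56388516, 11216 bp into the gene, was called with a slope of 8.26 (limma adjusted p = 0.0162). S100b had an r of -0.0514 (permutation p = 0.831, n = 20).

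Over all members 13 of 157 CpGs were called (8.28%, limma), 11 rising and 2 falling, against 3.49% of 446263 CpGs, with 2.24% rising and 1.26% falling. Aldh1l1 held 6 of the 13, Slc1a3 3, Slc1a2 2, and Gfap and Gja1 1 each. An unadjusted p under 0.05 was reached by 46 member CpGs (29.3%), 23 in each direction, against 18.2% of all CpGs tested (limma). CpGs of a run lie close together and are not separate observations. Leaving out 1 library left 3 to 13 member CpGs called, with 3 without HEM replicate 10 and 4 without WT replicate 6 of 13 months. Leaving out HEM replicate 3 or 6 or WT replicate 1 of 13 months, or HEM replicate 7 of 3 months, left 6 in each case, and leaving out HEM replicate 1, HEM replicate 3 or WT replicate 4, all of 3 months, left 7. Leaving out HEM replicate 7 of 13 months or WT replicate 3 of 3 months left 8. Singly, the CpGs Slc1a2 102762825, Gfap 102896957 and Slc1a3 8682651 lost their call in 17, 16 and 15 of these 20 fits, and Slc1a2 102762838 in 10. Of the 6 in Aldh1l1, 90550887 lost it in 14, 90550932 in 13, 90550751 in 11, 90550208 in 7, 90550883 in 3 and 90570237 in 1. Gja1 56388516 lost it in 2, Slc1a3 8642755 in 1 and Slc1a3 8682809 in 0.

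**Figure D4:**
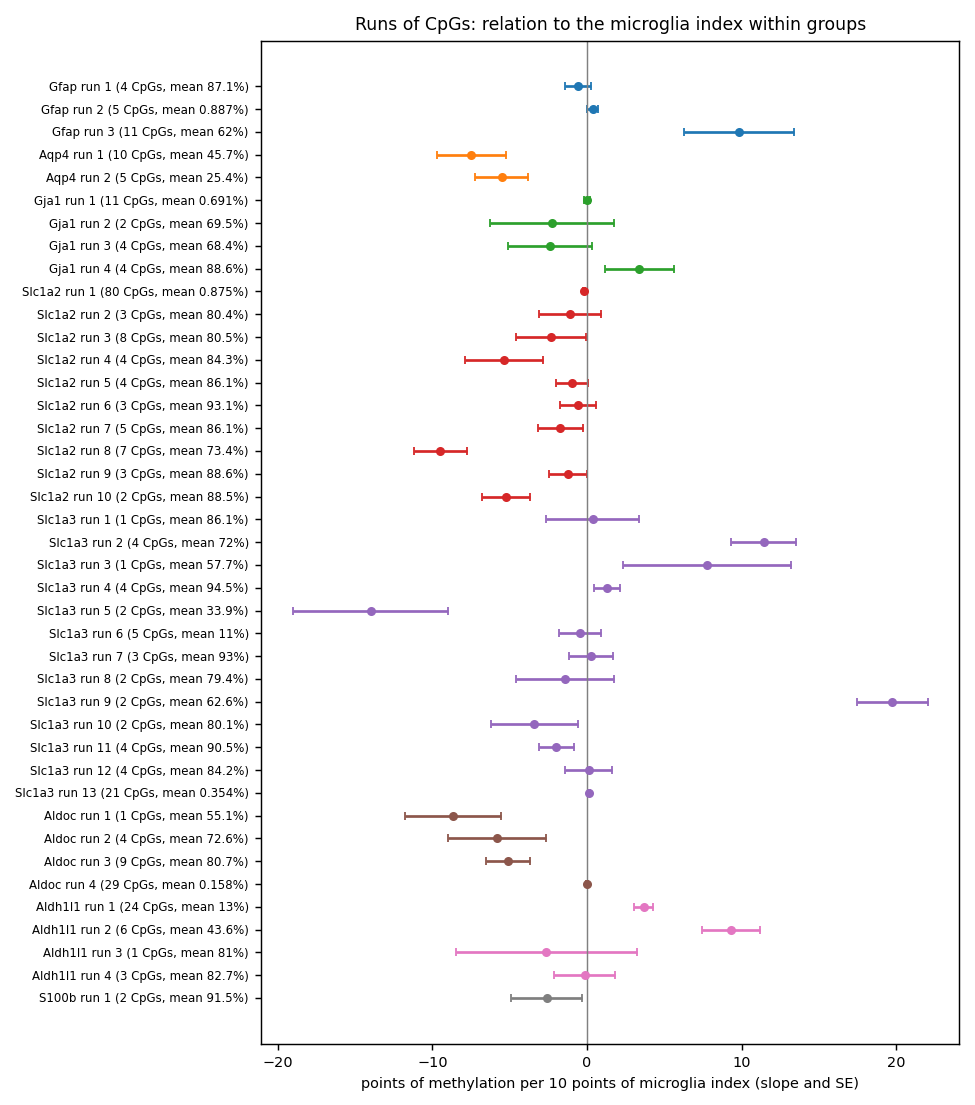
Slope of methylation on the microglia index (points per 10 index points, horizontal axis) with its SE for each run of CpGs no more than 500 bp apart, by gene. The runs of Aqp4 and Aldoc lie below 0, those of Slc1a3 between -14.0 and 19.7, and the runs under 1% methylation near 0.

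Other astrocyte genes were read beside the members. No gene of these lists was called in a group comparison (limma), where 24, 14 and 17 or 18 genes of other astrocyte function, of astrocyte fate and Gfap regulation, and of the reactive state were tested. Their numbers at an unadjusted p under 0.05 were 1, 0 and 0 between genotypes at 13 months, 0, 1 and 1 at 3 months, 1, 2 and 2 between ages in WT, 2, 4 and 2 in HEM, and 1, 0 and 1 for the interaction. Over all regions the shares in these 5 comparisons were 3.77%, 3.75%, 4.63%, 13.6% and 4.97% (limma). The gene with the smallest p of the first list between genotypes at 13 months was Mt3, a metallothionein gene, at 55.8% in HEM against 46.7% in WT libraries (limma adjusted p = 0.99989). Mt3 was 10.6 points higher at 13 than at 3 months in HEM (limma adjusted p = 0.214). Serping1, a complement inhibitor gene of the reactive list, was 10.5 points higher (limma adjusted p = 0.286).

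In relation to the index, where 13.9% of all regions were called, 1 of 24 other astrocyte genes was called, Prodh, the gene of proline oxidase, with a slope of -1.46 (limma adjusted p = 0.0377), and the median slope was -0.515. Of 14 regulators of astrocyte fate and Gfap, 5 were called, with a median of -0.452. Jak1, a cytokine receptor kinase gene, had a slope of 0.472. The gliogenic transcription factor genes Nfia and Nfib had slopes of -1.31 and -0.900, Lifr, the gene of a cytokine receptor, -0.896, and Smad4, a BMP signalling gene, -0.502. Of 18 reactive astrocyte genes 2 were called, both falling, and the median slope was -0.781. These 2 were Serping1, with a slope of -6.65 (limma adjusted p = 0.0157), and Tgm1, a transglutaminase gene, with one of -1.86 (limma adjusted p = 0.0391). When each library was left out in turn, Nfia was called in all 20 fits, and Prodh and Tgm1 lost their call in 10 each, Smad4 in 7, Nfib and Lifr in 4 each, and Jak1 and Serping1 in 2 each. Mt3 had a slope of -6.22 and was not called (limma adjusted p = 0.0554), but it was called in 4 of these 20 fits.

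Markers of other cell types moved as follows. Of 7 other microglia markers 6 were called rising with the index, with a median slope of 6.90. Of 5 border macrophage and leukocyte markers 3 were called rising, with a median of 6.20, where 6.1% of all regions were (limma). Called falling were 1 of 11 neuron markers and 1 of 9 oligodendrocyte lineage markers. Of 9 vessel markers 0 were called, where 7.77% of all regions were called falling (limma). At an unadjusted p under 0.05 there were 2 of 11, 4 of 9 and 2 of 9, against 29.9% of all regions (limma). Median slopes were -0.652, -1.30 and -1.46, against -0.185 over all regions. All 9 oligodendrocyte slopes were below 0, as were 7656 of the 12330 slopes over all regions. The part of these cell types in the members' slopes was not tested.

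**Figure D5:**
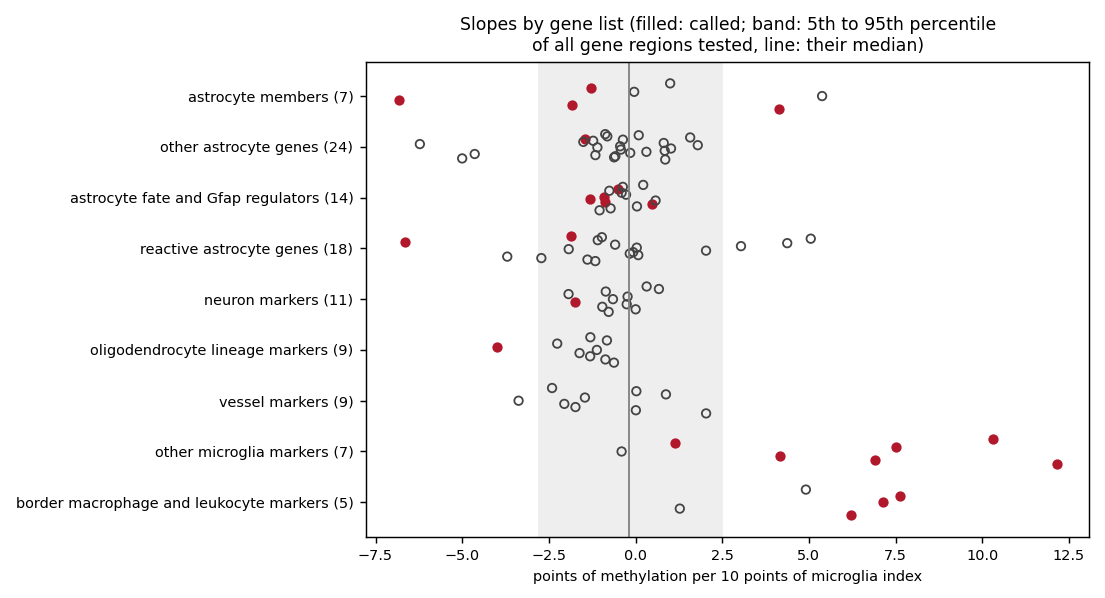
Slope on the microglia index (points per 10 index points, horizontal axis) of each gene tested, by list, over a band from -2.79 to 2.48 that spans the 5th to 95th percentiles of all gene regions. Most other microglia markers lie right of the band, and the astrocyte members lie on both sides of 0.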

How the data were processed

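Percent methylation per CpG was deposited by the authors as a table per library, made by alignment with Bowtie2 and calling with methylKit on mm10, per the submitters' processing notes, which give no versions here. The read counts behind the percentages were not used here, so coverage could not be filtered or weighted. Whole-series tables, with 21 value columns, were not used.

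CpGs of chromosomes 1 to 19, X and Y listed at both ages were averaged per gene, with 1 kb either side. Regions with at least 3 CpGs and a mean of 5% to 95% went into limma 3.58.1 (R 4.3.3) as log2((percent + 1) / (100 - percent + 1)), using Benjamini-Hochberg adjustment over all regions, and CpGs likewise. S100b had too few CpGs for the region test. In the relation to the index, regions sharing CpGs with the index genes were left out. Runs joined CpGs at most 500 bp apart and got slopes on the percent scale with no test. Correlations used 100000 permutations, or all of them at 3 months (scipy 1.17.1, Python 3.11.15).

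The members, lists and tests were chosen with earlier results of these data known. Named are all members and index genes, every list gene called, otherwise the gene of smallest p per list (3 per sign for the index), and CpGs that were called, extreme in mean or spread, or of smallest p; the text gives a selection of these. The fits were tested on simulated data with known changes, 200 of each size at once. All were placed in features in the middle of the methylation range. Slopes of 2, 5 and 10 points per 10 index points in gene regions were recovered in 41.0%, 83.0% and 97.5%, and of 20 points at single CpGs in 10.0%. Same-numbered HEM and WT libraries of 13 months had correlations of deviations of 0.164, 0.415 and 0.0644. Each of these 6 libraries correlated best with its own number. At 3 months the same-numbered pairs had correlations of 0.145 and -0.280, and between ages the WT pair had 0.126. Between ages in HEM they were 0.0813, -0.295 and -0.0840, and 1 of 6 libraries correlated best with its own number. Main tests did not pair libraries by number and so take no account of shared numbers, and a replicate block was run as an alternative. Alternatives were scale, offset, filters, flanks, strands, covariates, index genes, each age alone, leaving out libraries and a replicate block.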

Additional observations from a re-analysis of the deposited data

Results flagged for a closer look

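In 5 of 116 groups of 4 or 8 libraries (4.31%), the library at one end stood farther from its neighbour than Dixon's limit, where chance marks about 1 in 20. All were at 3 months. In WT, Aldoc was 22.2% in replicate 3 against 25.2% to 25.8% in the other 3, the first run of Aqp4 was 50.4% in replicate 4 against 40.9% to 42.2%, and the second run of Aldh1l1 was 38.1% in replicate 5 against 46.6% to 47.6%. In HEM, Slc1a3 was 43.4% in replicate 1 against 42.3% in the other 3, and the fifth run of Slc1a2 was 93.2% in replicate 1 against 87.5% to 88.0%. WT replicate 5 had the lowest index of the 3-month libraries, 46.5%, and HEM replicate 1 the highest, 58.0%. The part of the index in these values was not tested.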

How the results depend on the processing

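No member region was called in a group comparison under any alternative run. In the relation to the index, 1 member was called in 13-month libraries (Aldh1l1) and 0 in 3-month libraries, with 481 and 70 regions called in all, and 909 without the 2 farthest libraries. Gfap was called with the index over all CpGs (7.20, limma adjusted p = 0.0475) or without Csf1r (6.92, 0.0431), and Slc1a3 with the library mean as covariate (1.19, 0.0209). When each library was left out in turn, Gfap was called in 3 of 20 fits and Slc1a3 in 1. Leaving out 1 library gave 3 to 5 members and 1000 to 2805 regions, 0 to 5 regions between ages in HEM and 0 to 1 for the interaction. Regions between ages in HEM numbered 5 without the mean filter and 4 on variable CpGs only, a setting added after the data were seen, and the interaction 1 with the index as covariate.

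Member CpGs called with the index numbered 1 at 13 months and 0 at 3 months, and 3 to 13 without 1 library. All CpGs called with it numbered 24941 on the percent scale, 1910 at 13 months, 0 at 3 months and 7710 to 18695 without 1 library. Between genotypes at 13 months they numbered 0 on the percent scale or with an offset of 5, 18 with no minimum difference and 4 to 44 without 1 library, and at 3 months 0 to 38. Between ages, percent-scale counts were 38 in WT and 20 in HEM, and counts without 1 library 63 to 181 and 114 to 195. For the interaction they were 0 on the percent scale, with an offset of 5 or with the index as covariate, and 0 to 6 without 1 library.

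The replicate block changed no member call. It left 0 CpGs called between genotypes at 13 months and between ages in HEM. Under the block, added for the index after the data were seen, the index difference at 3 months was -0.510. Every one of the 6 same-numbered libraries of 13 months correlated best with its own number, against 1 of 6 between ages in HEM. With the block the difference was 0.302 in Gfap and 0.378 in Gja1 at 13 months, 1.32 in Aldoc and 0.0868 in Slc1a2 at 3 months, and -0.115 in Gja1 between ages in HEM. WT ages share 1 number, so no block could be fitted there.

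Signs of uncalled differences also turned with the index as covariate: Gfap 1.07 and Slc1a2 -0.365 at 13 months, Aldoc 0.286 at 3 months, Slc1a2 -0.103 between ages in WT, Aldh1l1 0.778, Gfap 0.953, Gja1 -0.00837 and Slc1a2 -0.0959 between ages in HEM, and Gfap 0.964 and Slc1a2 -0.16 for the interaction. Others were Slc1a2 -0.00101 without flanks at 13 months, between ages in WT Aqp4 0.0566 with strands averaged and Gfap 0.0333 with the library mean, and between ages in HEM Gja1 -0.280 and Slc1a3 -0.112 on variable CpGs, and -0.533 and -0.101 with the library mean. The slope of Gja1 was 0.284 with the library mean, 0.00901 without Csf1r and 0.130 at 13 months. The cause was not tested. The index difference without 1 library was -6.04 to -0.633 at 13 months and 1.03 to 3.93 at 3 months. Leaving out 1 library turned signs of uncalled member differences, with ranges at 13 months of -2.81 to 0.2265 in Aldh1l1, -3.28 to 0.465 in Gfap and -0.550 to 0.376 in Slc1a2, and at 3 months of -1.58 to 0.290 in Aldoc and -1.34 to 3.41 in Gfap. Between ages in WT they were -1.51 to 1.53 in Aldh1l1, -1.01 to 0.786 in Aldoc, -2.48 to 1.55 in Aqp4, -3.18 to 0.5004 in Gfap and -0.0908 to 0.836 in Slc1a2, and in HEM -0.316 to 0.813 in Gja1 and -0.129 to 0.404 in Slc1a3. For the interaction they were -4.41 to 0.493 in Gfap and -0.0123 to 0.914 in Slc1a2, and the slope of Gja1 ran from -0.551 to 0.367. The read depth behind single CpGs is unknown.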
